A study of Mus musculus with 9 samples.

Results

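The genes described here build the basement membrane zone of the skin and the hemidesmosomes that hold the epidermis on it. The set holds 38 genes, chosen by name as subunits, assembly partners or receptors of these structures, and all 38 were found by symbol among the 54532 genes of the table. RNA was sequenced from skin of wild-type (WT) mice in 9 libraries, 3 of healthy control skin (ctrl), 3 of bleomycin-treated skin (Blm) and 3 of bleomycin-treated skin given topical nitrate (Blm_nit). Bleomycin, an antibiotic that breaks DNA, is given to mice as a model of systemic sclerosis, a disease of skin fibrosis, and nitrate is an anion that tissue can reduce to nitrite and nitric oxide. The sources used here do not give strain, age, sex, doses or times, and the labels name no further agent or allele for any group. Whether each library came from its own animal is not stated either, and a p value therefore reflects the variation among libraries, which may be technical.

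A basement membrane is a thin sheet of matrix under epithelia and around vessels, muscle fibres, nerves and fat cells. Collagen IV and laminins each form a network in it, and nidogens and perlecan link the networks. Under the epidermis the sheet is pinned on both sides. Hemidesmosomes of basal keratinocytes grip it through collagen XVII and integrin alpha-6 beta-4, and anchoring fibrils of collagen VII fasten it to the dermis. Bulk skin therefore mixes basement membranes made by several cell types, and fewer cells of a type cannot be told apart from less RNA per cell.

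Values are FPKM as deposited, that is, fragments scaled for gene length and for sequencing depth, so levels can be compared between genes. A fold change here is the limma estimate on the log2(FPKM + 1) scale, given ± its standard error, and it understates changes of genes near 1 FPKM. Adjustment of p was by Benjamini and Hochberg across the 14645 genes that reached 1 FPKM in at least 3 libraries, and a gene was called at an adjusted p under 0.05. Of the 38 genes 33 passed that filter. Col4a3, Col4a4, Lama1, Fras1 and Frem1 did not, and 0 of the 33 passed through the libraries of 1 group alone.

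The 6 collagen IV genes lie in 3 pairs, each transcribed outward from a shared start region, and the stretches at these starts are shown because the levels are described pair by pair. They are taken from RefSeq promoter windows of build GRCm38.p6, and capitals mark a GC box (GGGCGG or its complement CCGCCC) or a CCAAT box (CCAAT or its complement ATTGG). Col4a1 and Col4a2 on chromosome 8 overlap by 22 bases at their 5′ ends, within the annotated first exons (chr8:11312805-11312826, plus strand). Between Col4a4 and Col4a3 on chromosome 1 lie 71 bases (chr1:82586850-82586920, minus strand). Col4a6 and Col4a5 on the X chromosome are separated by 1308 bases, of which the 250 before Col4a6 (chrX:141474077-141474326, minus strand) and 216 before Col4a5 (chrX:141475169-141475384, plus strand) are given.
Col4a1 and Col4a2: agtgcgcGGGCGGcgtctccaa
Col4a4 and Col4a3: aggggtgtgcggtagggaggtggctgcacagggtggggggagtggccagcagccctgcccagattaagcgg
Col4a6: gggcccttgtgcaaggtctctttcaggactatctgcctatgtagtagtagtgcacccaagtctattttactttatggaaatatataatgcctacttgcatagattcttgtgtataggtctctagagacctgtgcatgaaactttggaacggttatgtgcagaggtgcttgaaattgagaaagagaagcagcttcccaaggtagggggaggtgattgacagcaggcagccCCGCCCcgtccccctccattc
Col4a5: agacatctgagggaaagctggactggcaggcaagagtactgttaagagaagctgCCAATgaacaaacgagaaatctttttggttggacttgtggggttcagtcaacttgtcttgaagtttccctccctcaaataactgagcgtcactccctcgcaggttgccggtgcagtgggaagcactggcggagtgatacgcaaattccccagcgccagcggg

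Both motifs are common. Of 32851 RefSeq windows, 32.7% hold a GC box and 33.8% a CCAAT box on either strand in the 250 bases before the start. RefSeq windows were matched for 27 of the 38 genes, 17 of which hold a GC box and 13 a CCAAT box in at least 1 window. These counts are of genes and the shares above are of windows. A gene may have more than 1 window, so the counts and shares cannot be compared. In the full 250 bases Col4a2 holds 2 GC boxes, Col4a5 and Col4a6 hold 1 each and Col4a1 and Col4a4 hold 0. A CCAAT box is present once each before Col4a1, Col4a2 and Col4a5. The 250 bases before Col4a1 and Col4a2 are 74.4% and 73.6% G or C, against 47.6% before Col4a6 and a median of 52.4% over all windows. A letter match describes the sequence and shows no binding.

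Bleomycin was compared with control to ask what the drug changed in this zone. The set did not move in 1 direction. Among the 33 tested genes 1 rose, Itga3, and 2 fell, Col15a1 and Col4a6, while 8.43% of all genes were called, 4.74% higher and 3.69% lower. At an unadjusted p under 0.05 there were 13 of the 33, 7 higher and 6 lower, against 26.9% of all genes, 14.0% higher and 12.8% lower. The median fold change was -0.13, with 19 estimates below 0, against a median of 0.01 over all genes, of which 48.4% lay below 0. All 3 bleomycin libraries lay above all control libraries for 3 of the 33 genes and below them for 9, against 18.4% and 17.3% of all genes.

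Collagen IV alpha-1 and alpha-2, the chains of almost every basement membrane, were by far the most abundant of the 6 and did not pass in this comparison. Col4a1 (chromosome 8, 11198423 to 11312826 in mm10) had 138.7, 139.5 and 105.5 FPKM in control 1 to 3, 126.7, 153.7 and 102.5 in bleomycin 1 to 3, and 103.8, 49.5 and 69.2 in nitrate 1 to 3. Col4a2 (chromosome 8, 11312805 to 11449287) had 88.8, 95.99 and 71.7 FPKM in control, 90.4, 100.7 and 70.3 under bleomycin and 69.3, 44.8 and 49.4 under nitrate. For both genes the bleomycin libraries spanned the range of the control libraries, with fold changes of -0.01 ± 0.27 (adjusted p = 0.984) and 0.02 ± 0.21 (adjusted p = 0.961). The ratio of Col4a1 to Col4a2 was 1.40 to 1.56 in 8 libraries and 1.105 in nitrate 2.

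The other collagen IV chains had lower values with bleomycin. Col4a5 and Col4a6 encode the alpha-5 and alpha-6 chains, which form a network under the epidermis. Col4a6 (chromosome X, 141165403 to 141474076) had 2.41, 1.47 and 3.56 FPKM in control, 0.531, 0.927 and 0.960 under bleomycin and 2.56, 2.07 and 2.16 under nitrate. It fell with bleomycin, by 0.91 on this log2 scale (-0.91 ± 0.22, adjusted p = 0.0416), and every bleomycin library lay below the other 6. The adjusted p was above 0.05 without control 1 (0.0977), control 3 (0.0995), bleomycin 1 (0.109), bleomycin 2 (0.0844), bleomycin 3 (0.0931), nitrate 1 (0.0571) or nitrate 3 (0.0521), with fold changes of -0.69 to -0.97. Its partner Col4a5 (chromosome X, 141475385 to 141689234) had 4.90, 4.51 and 4.49 FPKM in control, 2.04, 1.89 and 3.06 under bleomycin and 4.61, 2.28 and 4.51 under nitrate. The bleomycin libraries lay below the control libraries, but the test was not passed (-0.78 ± 0.22, adjusted p = 0.0690). With nitrate, libraries 1 and 3 were near control values and library 2 was within the bleomycin range.

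Col4a3 and Col4a4, whose chains join alpha-5 in the collagen IV of kidney and some other tissues, were low in FPKM. They reached at most 0.913 and 1.56 FPKM, both in control. The reads recovered for Col4a4 were 141, 278 and 197 in control, 24, 18 and 20 under bleomycin and 38, 54 and 100 under nitrate. Those for Col4a3 were 65, 153 and 133 in control, 27, 11 and 18 under bleomycin and 11, 14 and 30 under nitrate. Every control library of both genes held more reads than any of the 6 bleomycin or nitrate libraries, and only control 2 and 3 reached 1 FPKM, for Col4a4. With no filter on low values Col4a4 was called lower with bleomycin (-0.95 ± 0.15, adjusted p = 0.0255), while Col4a3 was not (-0.61 ± 0.13, adjusted p = 0.0584). On recovered reads with voom, which adds no 1 to the FPKM and was chosen after the data were seen, both were called lower with bleomycin, Col4a3 by -2.69 ± 0.51 (adjusted p = 0.0141) and Col4a4 by -3.30 ± 0.47 (adjusted p = 0.00437) in log2 of reads. The same fit gave -2.86 ± 0.52 (adjusted p = 0.0140) and -1.91 ± 0.36 (adjusted p = 0.0156) for nitrate against control.

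**Figure D1:**
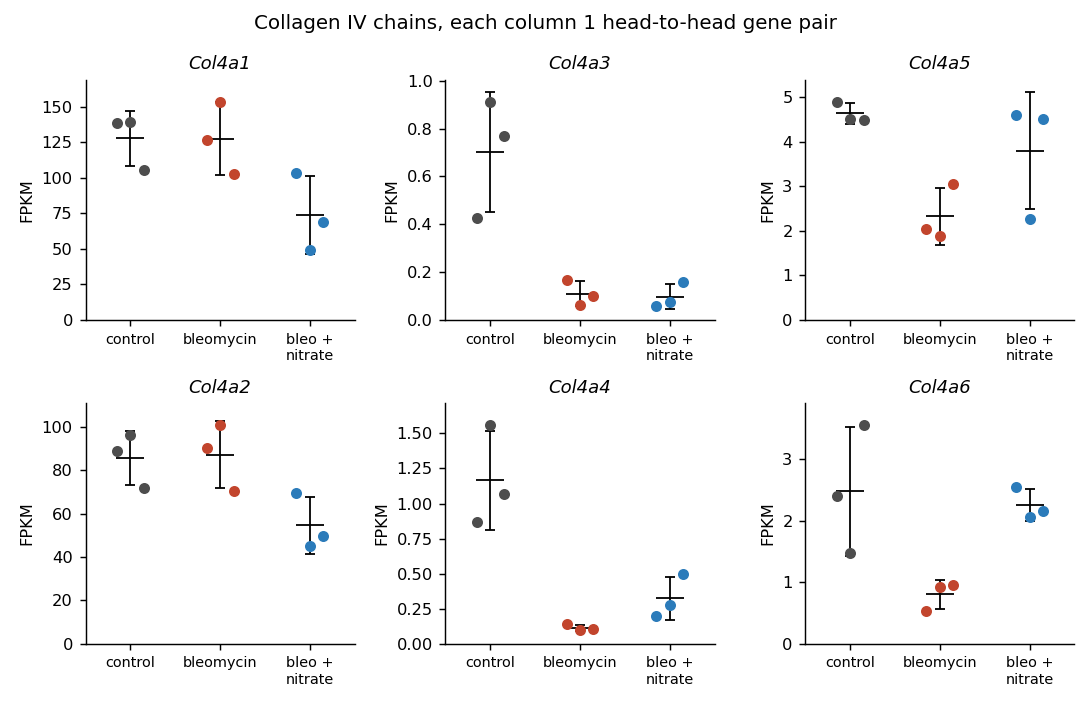
FPKM of the 6 collagen IV genes (y axes, linear from 0) in the 3 groups (x axis), with 1 point per library and the mean ± SD of 3 libraries in black. Each column is 1 gene pair: Col4a1 and Col4a2 lie lowest with nitrate, Col4a3 and Col4a4 lie below control in both treated groups, and Col4a5 and Col4a6 lie lowest with bleomycin.

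Among laminins, trimers of an alpha, a beta and a gamma chain, estimates with bleomycin lay on both sides of 0, with 3 above and 6 below. Of 10 chains 9 were tested, and 0 were called against control by limma or with voom. At an unadjusted p under 0.05 there were 4, 2 higher and 2 lower. Over all genes 8.43% were called, and 26.9% had that unadjusted p, 14.0% higher and 12.8% lower. Lama3 and Lamb3, the alpha and beta chains of the epidermal laminin that hemidesmosomes bind, were high in bleomycin 1 and 2 but not in bleomycin 3. Lama3 had 4.07, 2.64 and 5.36 FPKM in control, 9.98, 11.7 and 3.44 under bleomycin and 6.89, 4.41 and 4.96 under nitrate (0.80 ± 0.39, adjusted p = 0.229 with bleomycin against control). Lamb3 had 7.97, 7.07 and 10.04 FPKM in control, 16.9, 17.9 and 8.55 under bleomycin and 11.98, 9.68 and 7.82 under nitrate (0.67 ± 0.27, adjusted p = 0.159). Both chains were thus lowest in library 3 of the bleomycin group. Without bleomycin 3, Lama3 had 1.27 ± 0.26 (adjusted p = 0.0453) and Lamb3 0.98 ± 0.20 (adjusted p = 0.0429). It is the only 1 of the 9 libraries whose omission gave either call, and it was singled out for its low values of these genes, so neither call supports a rise.

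The beta chains that are not epidermal lay on opposite sides of control under bleomycin. Lamb1, the beta chain of many developing and vascular membranes, had 11.1, 14.7 and 11.6 FPKM in control, 17.6, 20.1 and 17.5 under bleomycin and 15.6, 11.1 and 16.4 under nitrate. Lamb2, prominent at nerve endings, muscle and vessels, had 45.4, 55.6 and 41.6 FPKM in control, 31.1, 27.5 and 26.5 under bleomycin and 27.0, 36.7 and 18.97 under nitrate. Neither passed against control, with 0.53 ± 0.17 for Lamb1 (adjusted p = 0.0862) and -0.72 ± 0.22 for Lamb2 (adjusted p = 0.0855), although the libraries of the groups did not overlap for either. Lamb2 was thus 3.60 to 4.07 times as abundant as Lamb1 in control and 1.37 to 1.77 times in bleomycin, a ratio chosen after the values were seen and given without a test. In nitrate it was 1.73, 3.32 and 1.15. Nitrate 2, which had the highest ratio of the 3, also had the highest summed level of 10 skeletal muscle genes in its group (1 of them at 0 in some library), at 9659 FPKM against 3032 and 2212. That sum was 13915 to 21068 in control and 2920 to 12979 in bleomycin, and its part in the Lamb2 values was not tested.

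Lamc1 encodes the gamma chain of most laminins and Lamc3 a rarer gamma chain. Lamc3 had 3.23, 3.69 and 4.63 FPKM in control, 0.584, 2.56 and 1.27 under bleomycin and 4.05, 6.21 and 3.51 under nitrate. The bleomycin libraries lay below those of both other groups, yet the gene passed neither against control (-1.04 ± 0.30, adjusted p = 0.0673) nor with nitrate against bleomycin (1.23 ± 0.30, adjusted p = 0.126). Lama5, the alpha chain of epithelial membranes, lay between 8.89 and 14.6 FPKM in all 9 libraries and did not pass in any comparison. Lama4, the vascular alpha chain, had means of 11.1 ± 1.58, 10.1 ± 2.52 and 6.40 ± 1.62 FPKM in control, bleomycin and nitrate (SD, n = 3), and Lama2, the muscle and nerve chain, had 5.98 ± 1.15, 4.23 ± 0.359 and 4.71 ± 1.53. Lama1, mainly an embryonic chain, stayed below 0.5 FPKM in all 9 libraries.

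Of the 7 hemidesmosome and anchoring fibril genes, 6 were lowest in bleomycin 3 within the bleomycin group, as Lama3 and Lamb3 were, and Cd151 was highest there. None of the 7 passed limma's test with bleomycin, and 0 were called with voom. At an unadjusted p under 0.05 there were 3, 2 higher and 1 lower. That p was reached by 26.9% of all genes, 14.0% higher and 12.8% lower, and 8.43% were called. Itgb4, an integrin chain of hemidesmosomes, had 21.4, 18.9 and 24.1 FPKM in control, 39.7, 36.8 and 22.7 under bleomycin and 26.9, 25.4 and 16.6 under nitrate (0.57 ± 0.24, adjusted p = 0.179). Itga6, its partner, had 30.7, 23.9 and 28.6 in control, 43.8, 45.1 and 24.8 under bleomycin and 26.1, 23.2 and 17.7 under nitrate (0.40 ± 0.24, adjusted p = 0.327). For both genes bleomycin 1 and 2 lay above all controls and bleomycin 3 among them. Col7a1, the anchoring fibril collagen, had 6.10, 4.04 and 7.32 FPKM in control, 11.9, 23.4 and 6.86 under bleomycin and 6.14, 11.9 and 10.4 under nitrate (1.02 ± 0.41, adjusted p = 0.154). Col17a1, a transmembrane collagen of the hemidesmosome and the most abundant of these genes, ranged from 62.3 to 128.6 FPKM with overlapping groups (0.31 ± 0.26, adjusted p = 0.484).

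Marker sums differed among the bleomycin libraries too. A list of 8 skin stress genes, 2 of them at 0 in some library, held keratin and Sprr genes beside S100a8, S100a9 and Il1b. Its summed level was 6999, 3780 and 1308 FPKM in bleomycin 1, 2 and 3, 25.6 to 126.6 in control and 154.0 to 802.9 in nitrate. That of 8 basal keratinocyte genes, with 0 at 0 in any library, was 6567, 7460 and 4288 FPKM in bleomycin, 1822 to 3011 in control and 4389 to 5437 in nitrate. Krt15 of that list went the other way, with 363.3, 324.7 and 439.7 FPKM in control and 52.1, 127.2 and 130.5 in bleomycin. Bleomycin 3 was the lowest of its group in both sums. It was not the lowest for Krt15 and Cdh3 of the basal list or for Sprr2d, S100a9 and Il1b of the stress list. The part of either sum in the values of the adhesion genes was not tested. Without bleomycin 3, Itgb4 (0.81 ± 0.21, adjusted p = 0.0910), Itga6 (0.67 ± 0.18, adjusted p = 0.1001) and Col7a1 (1.41 ± 0.36, adjusted p = 0.0866) still did not pass.

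**Figure D2:**
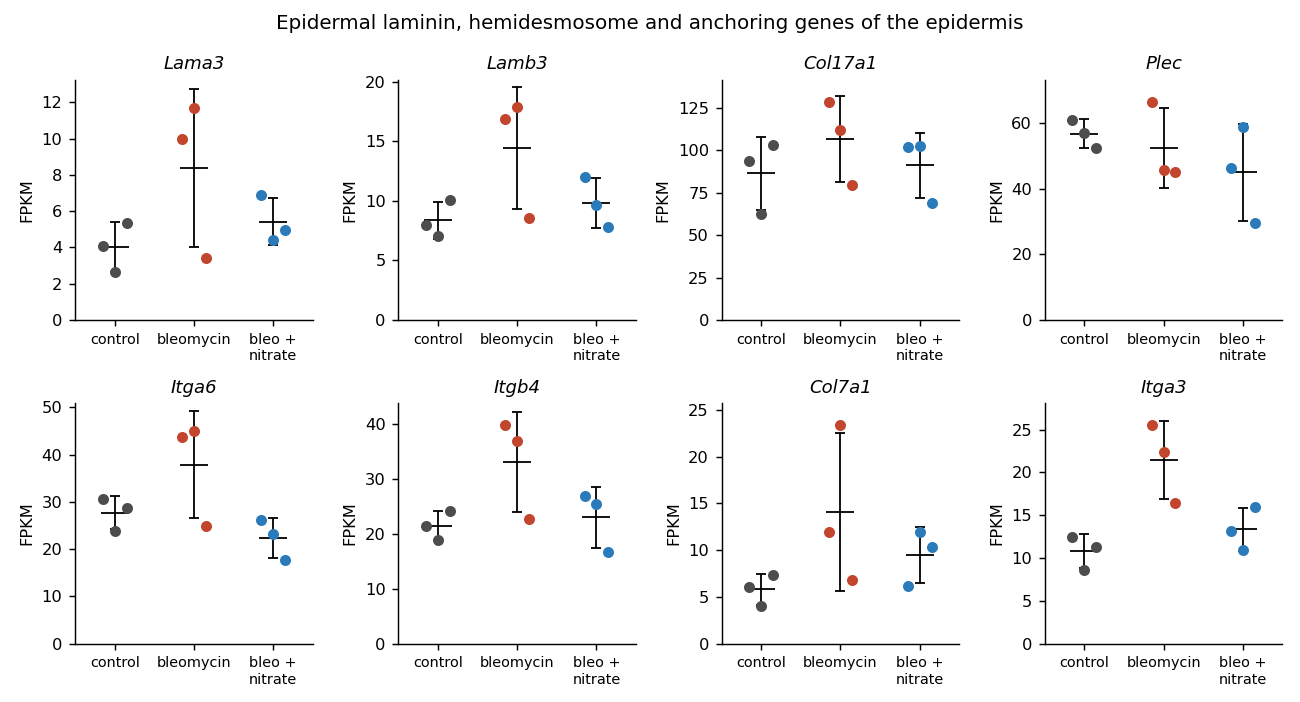
FPKM (y axes, linear from 0) of 2 chains of the epidermal laminin and of 6 genes of epidermal adhesion in the 3 groups (x axis), with 1 point per library in the order 1, 2, 3 from left to right and the mean ± SD of 3 libraries in black. Bleomycin 3 lies apart from bleomycin 1 and 2 for Lama3, Lamb3, Itga6 and Itgb4, at 3.44, 8.55, 24.8 and 22.7 FPKM.

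The plakin and tetraspanin parts of the hemidesmosome had other profiles. Dst and Plec, plakins that tie integrins to keratins and are also expressed in muscle and nerve, overlapped between groups, with means of 14.6 ± 1.12, 11.03 ± 3.10 and 10.7 ± 3.66 FPKM for Dst and 56.7 ± 4.36, 52.4 ± 12.2 and 44.9 ± 14.6 for Plec in control, bleomycin and nitrate. Cd151 (chromosome 7), a tetraspanin that binds laminin-binding integrins in hemidesmosomes and in many other cells, had 61.1, 55.7 and 56.2 FPKM in control, 42.99, 43.8 and 46.1 under bleomycin and 41.1, 37.8 and 36.4 under nitrate. Both treated groups lay below control without overlap. The difference was called for nitrate against control (-0.57 ± 0.10, adjusted p = 0.0197) and not for bleomycin against control (-0.37 ± 0.10, adjusted p = 0.0558).

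Itga3, the other laminin-binding integrin alpha chain of basal keratinocytes, was the tested gene that rose with bleomycin. It (chromosome 11) had 12.5, 8.63 and 11.3 FPKM in control, 25.5, 22.4 and 16.5 under bleomycin and 13.2, 10.99 and 15.996 under nitrate. All bleomycin libraries lay above all others (0.92 ± 0.20, adjusted p = 0.0303 against control). Leaving out control 1 (0.0534), control 2 (0.112), control 3 (0.0713), bleomycin 1 (0.0881) or bleomycin 2 (0.0851) put its adjusted p above 0.05, with fold changes of 0.78 to 1.02. Bcam, a laminin alpha-5 receptor, and Dag1, which encodes dystroglycan, lay between 49.3 and 63.0 FPKM and between 44.1 and 82.6 FPKM over the 9 libraries and passed in no comparison.

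Of the matrix linkers, the 2 multiplexins lay on opposite sides of control under bleomycin. Col15a1, a collagen of vascular, muscle and nerve basement membranes, had 56.0, 63.4 and 44.98 FPKM in control, 27.9, 34.7 and 27.9 under bleomycin and 29.6, 20.4 and 22.2 under nitrate. The gene (chromosome 4) fell in bleomycin (-0.83 ± 0.18, adjusted p = 0.0293) and lay below control without overlap in both treated groups. Col18a1, a relative found in epithelial and vascular basement membranes, had 43.9, 29.9 and 32.3 FPKM in control, 68.6, 74.1 and 55.2 under bleomycin and 56.1, 31.1 and 38.6 under nitrate. Its bleomycin libraries lay above all control libraries, with a fold change of 0.89 ± 0.24 that did not pass (adjusted p = 0.0548). It was called without nitrate 1 (0.0341) or nitrate 2 (0.0370), libraries that enter this comparison only through the shared spread. Col15a1 lost its call without control 1 (0.0783), control 2 (0.111), bleomycin 1 (0.0855) or bleomycin 3 (0.0974), with fold changes of -0.72 to -0.81.

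Nid1 and Nid2, the nidogens, and Hspg2, which encodes perlecan, had overlapping control and bleomycin libraries and did not pass, with adjusted p = 0.559, 0.995 and 0.999. Hspg2 had 58.0 ± 8.06, 59.0 ± 15.3 and 36.5 ± 7.63 FPKM in control, bleomycin and nitrate, and Nid1 had 41.6 ± 10.04, 35.9 ± 5.59 and 25.96 ± 4.10. Agrn, the proteoglycan agrin, had 18.8 ± 2.15, 22.2 ± 3.77 and 25.7 ± 7.08 and passed in no comparison. Sums of endothelial and of fibroblast marker genes were lower in both treated groups than in control, though not every gene of the lists was. Summed over 12 endothelial genes the level was 262.3 to 298.5 FPKM in control, 150.2 to 170.7 under bleomycin and 114.4 to 209.4 in nitrate, and over 10 fibroblast genes 4762 to 6148, 1672 to 2609 and 1607 to 2442. Mfap5 of the fibroblast list had 3.57, 9.03 and 3.32 FPKM in control and 10.8, 6.93 and 13.7 under bleomycin. For Emcn, Sox18, Lum, Pdgfra and Pi16 the bleomycin libraries overlapped control. No gene of either list was at 0 in any library, and the part of these cells in the values of Col15a1 and the other genes was not tested.

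The genes of the Fraser complex and of hair follicle basement membranes were low. Fras1 and Frem1 stayed between 0.252 and 1.25 FPKM and were not tested, and Frem2 lay between 0.877 and 2.07. Egfl6, made by cells of the hair follicle bulge, lay between 0.503 and 1.85 FPKM, highest in nitrate 3. Npnt, which encodes nephronectin, a ligand that anchors the hair muscle to the follicle, had 15.5, 17.5 and 14.3 FPKM in control, 12.6, 8.30 and 11.6 under bleomycin and 12.2, 10.5 and 5.36 under nitrate. None of the 3 tested genes of this group passed limma's test in any of the 3 comparisons, and 0 passed with voom. The order here is bleomycin against control, nitrate against bleomycin and nitrate against control. At an unadjusted p under 0.05 there were 0, 1 and 1, against 26.9%, 17.9% and 31.5% of all genes. The shares of all genes called were 8.43%, 0.00% and 8.53%.

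**Figure D3:**
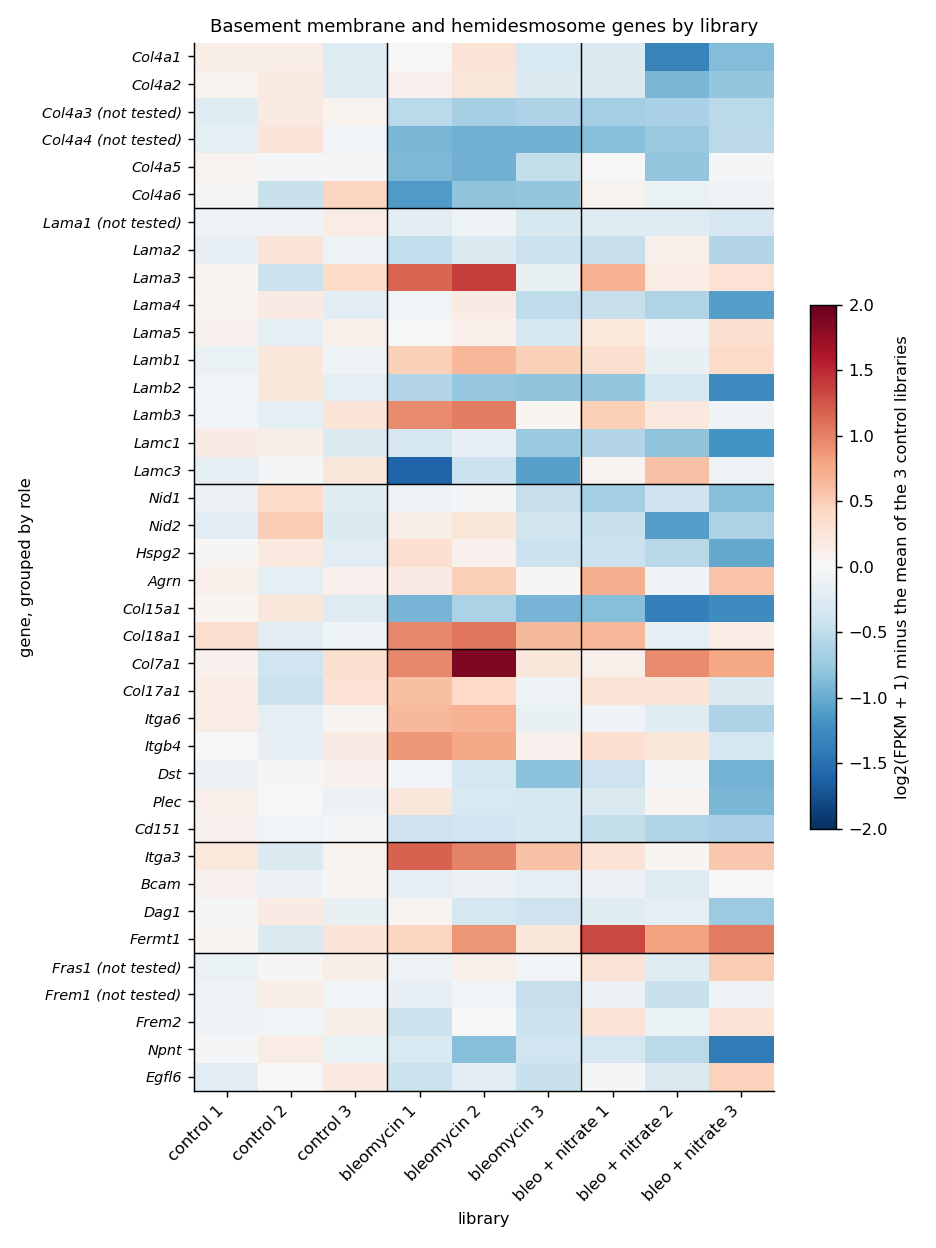
Difference of log2(FPKM + 1) from the mean of the 3 control libraries (colour, -2 to 2) for the 38 genes (rows, grouped by role, with the 5 genes under the filter marked) in the 9 libraries (columns). Rows change colour in both directions within each treated group, and nitrate 3 is the lowest library for Lama4, Lamb2, Lamc1, Hspg2 and Npnt.

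The effect of topical nitrate was read by setting bleomycin plus nitrate against bleomycin alone. None of the 33 genes was called by limma, as for 0.00% of all genes, and none with voom. At an unadjusted p under 0.05 there were 12 of the 33, 4 higher and 8 lower, against 17.9% of all genes, 7.48% higher and 10.4% lower. The median fold change was -0.25 with 23 of 33 estimates below 0, against a median of -0.0029 over all genes, of which 50.4% lay below 0. The nitrate libraries lay above all bleomycin libraries for 2 of the 33 genes, Col4a6 and Lamc3, and below them for 6, against 9.40% and 11.8% of all genes.

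The 6 genes with the smallest p were Lamc3 and Col4a6, which were higher with nitrate, and Col4a2, Itga3, Col4a1 and Itga6, which were lower. Col4a6 differed by 0.86 ± 0.22 (adjusted p = 0.134). Col4a1 differed by -0.82 ± 0.27 (adjusted p = 0.181) and Col4a2 by -0.68 ± 0.21 (adjusted p = 0.160). For Col4a2 all 3 nitrate libraries lay below all 6 others, while for Col4a1 nitrate 1, at 103.8 FPKM, lay just above bleomycin 3 at 102.5. The summed level of 9 adipocyte genes, 0 of them at 0 in any library, was 876.5, 246.99 and 527.4 FPKM in nitrate 1, 2 and 3, the library order of both collagen genes. It was 1431, 2057 and 1364 FPKM in control 1, 2 and 3, again the order of both collagen genes. In bleomycin 1, 2 and 3 it was 899.8, 858.2 and 1036, the reverse of their order. Not every gene of the list kept the order of the sum, and in nitrate Fabp4, Retn and Pnpla2 did not. The part of this list in the collagen values was not tested. Itga3 differed by -0.63 ± 0.20 (adjusted p = 0.170) and Itga6 by -0.71 ± 0.24 (adjusted p = 0.188). The comparisons share their bleomycin libraries with the comparison against control, so opposite values in the 2 are not independent.

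**Figure D4:**
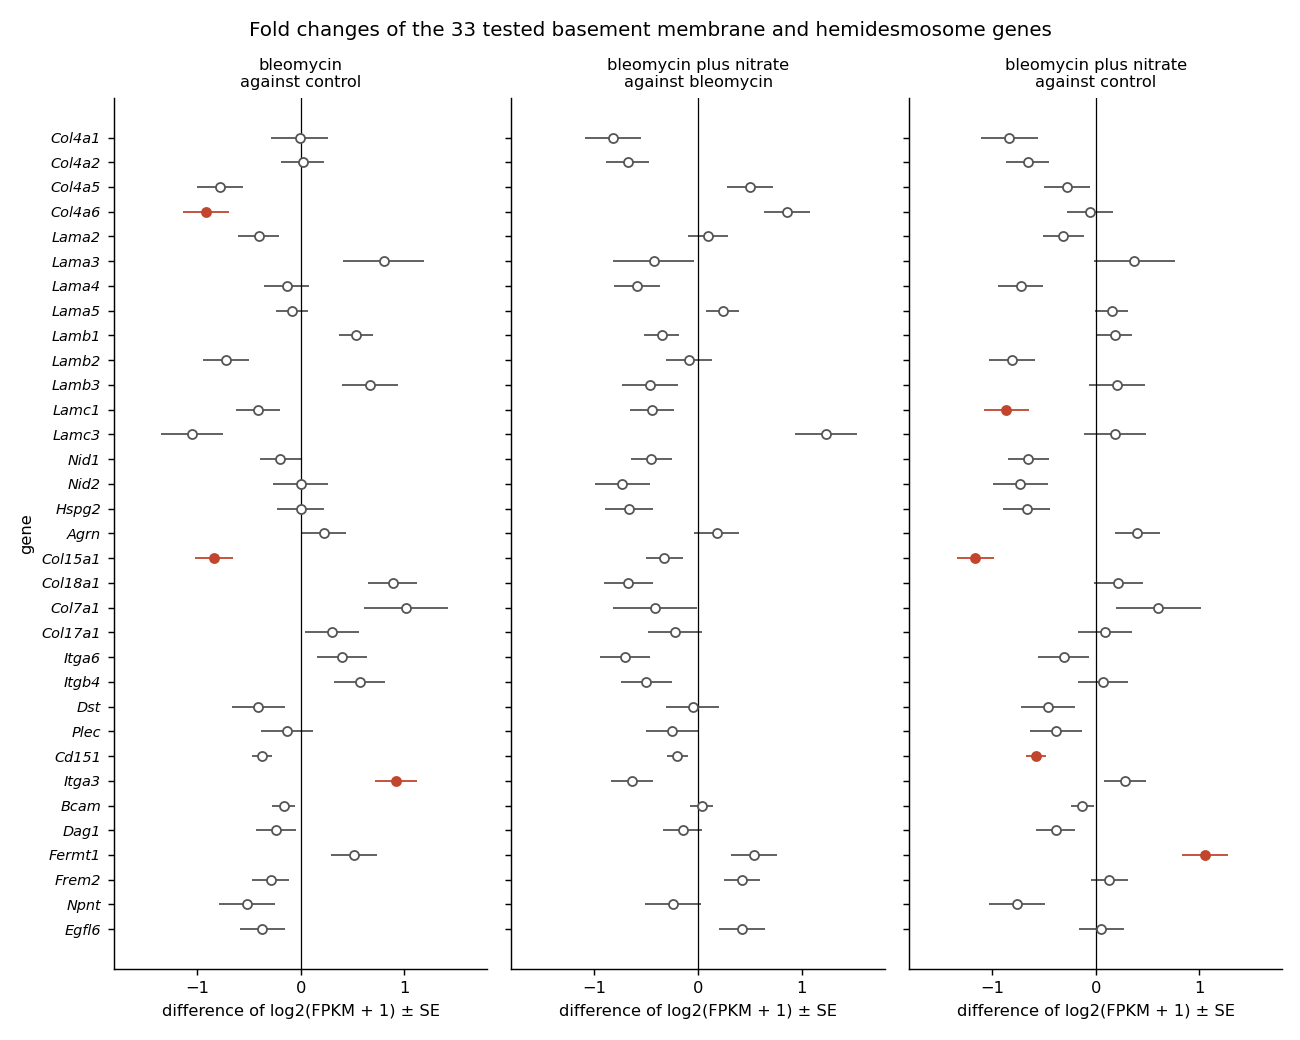
Differences of log2(FPKM + 1) ± SE from limma (x axes) for the 33 tested genes (rows) in the 3 comparisons (panels), with filled red points for an adjusted p under 0.05. Col4a6, Col15a1 and Itga3 are called in the left panel, none in the middle panel, and Lamc1, Col15a1, Cd151 and Fermt1 in the right panel.

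Nitrate plus bleomycin was also compared with control, which shows where treated skin still differed from healthy skin. Among the 33 genes 3 fell, Col15a1, Cd151 and Lamc1, and 1 rose, Fermt1, while 8.53% of all genes were called, 4.90% lower and 3.63% higher. At an unadjusted p under 0.05 there were 12 of the 33, 1 higher and 11 lower, against 31.5% of all genes, 15.4% higher and 16.0% lower. The median fold change was -0.27, with 19 estimates below 0, against 0.02 over all genes, of which 48.1% lay below 0. The nitrate libraries lay below all controls for 12 of the 33 genes and above them for 1, against 17.5% and 17.3% of all genes.

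Col15a1 had its largest difference here (-1.16 ± 0.18, adjusted p = 0.0163). Lamc1 (chromosome 1) had 58.8, 57.1 and 42.8 FPKM in control, 41.4, 46.7 and 31.0 under bleomycin and 34.6, 29.6 and 22.4 under nitrate, and it fell against control (-0.86 ± 0.21, adjusted p = 0.0456). Its nitrate libraries lay below all controls and overlapped bleomycin. Lamb2 (-0.80 ± 0.22, adjusted p = 0.0586) and Lama4 (-0.72 ± 0.22, adjusted p = 0.0728) lay below control without overlap and did not pass. Nid1, Nid2, Hspg2, Col4a1 and Col4a2 were also below control in all 3 nitrate libraries, with adjusted p = 0.0733, 0.110, 0.0966, 0.0862 and 0.0796.

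Fermt1 encodes kindlin-1, an integrin activator of keratinocytes whose loss causes the skin fragility of Kindler syndrome. The gene (chromosome 2) had 2.96, 2.15 and 3.64 FPKM in control, 4.21, 6.14 and 3.53 under bleomycin and 8.64, 5.73 and 6.95 under nitrate (1.05 ± 0.22, adjusted p = 0.0306 against control). All nitrate libraries lay above all controls, and nitrate 2 lay below bleomycin 2. The summed level of 13 genes of the growing hair follicle, 4 of them at 0 in some library, was highest in nitrate 1 and 3 as well. It was 8303, 1861 and 12015 FPKM in nitrate 1, 2 and 3, against 7.31 to 2223 in control and 55.9 to 3714 in bleomycin. Shh of that list differed, with 1.03 FPKM in nitrate 1 and 1.36, 1.05 and 1.83 in bleomycin 1, 2 and 3. With the mean of this list as a covariate Fermt1 had 0.95 and adjusted p = 0.245, Cd151 -0.56 and 0.189, Col15a1 -1.15 and 0.139, and Lamc1 -0.58 and 0.398, so none was called. The loss was not particular to these genes, as the covariate took the count over all 14645 genes from 1249 to 5. For Col15a1 the estimate hardly moved, while its standard error went from 0.18 to 0.25. The list mean itself differed between groups, at 3.10, 4.33 and 6.65 in control, bleomycin and nitrate on the log2(FPKM + 1) scale. Covariate and group therefore overlap, and the lost calls do not show a part of hair growth in these values.

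Leaving out each of the 9 libraries in turn ended 18 of 36 calls in this comparison. Col15a1 was lost without control 1 (0.0603), control 2 (0.0682) or nitrate 3 (0.0575), and Cd151 without control 1 (0.0739), control 2 (0.0745) or nitrate 3 (0.0636). Fermt1 was lost without control 1 (0.0883), control 2 (0.113), nitrate 1 (0.0785) or nitrate 3 (0.0885), and Lamc1 without any of 8 libraries, nitrate 2 being the exception.

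**Figure D5:**
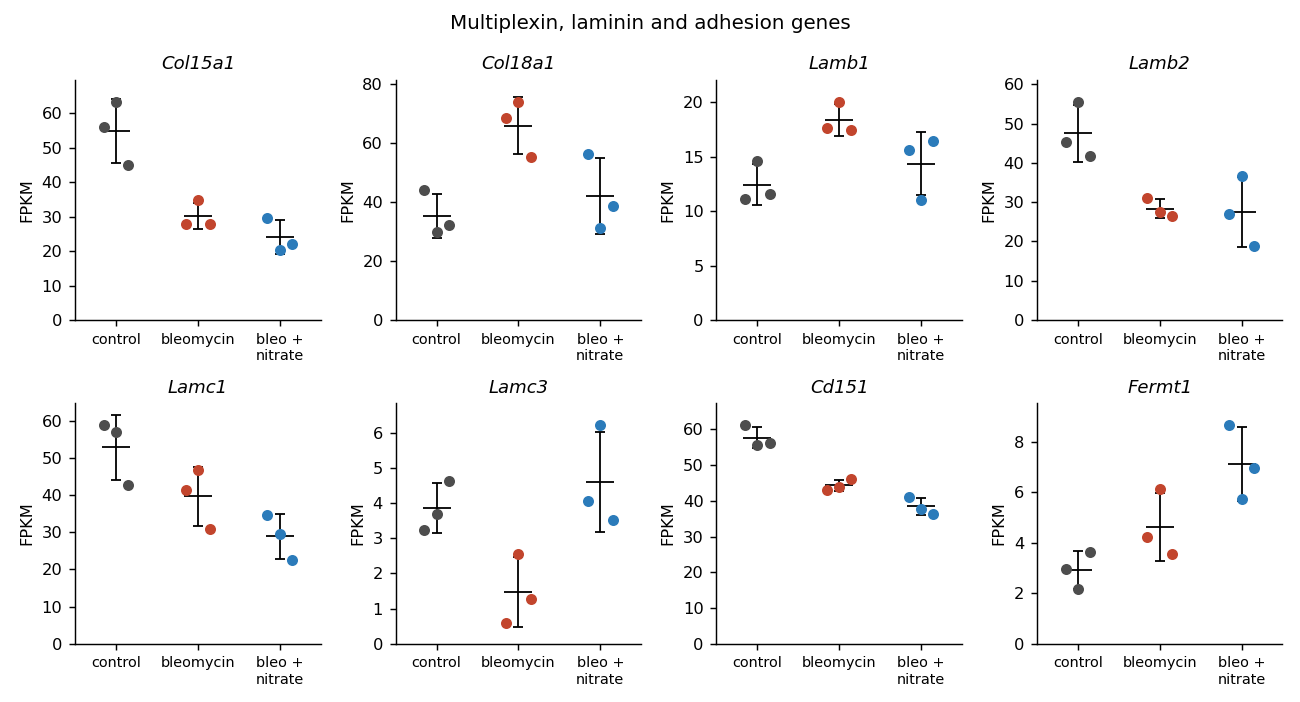
FPKM (y axes, linear from 0) of 8 multiplexin, laminin and adhesion genes in the 3 groups (x axis), with 1 point per library in the order 1, 2, 3 and the mean ± SD of 3 libraries in black. Col15a1 and Cd151 lie below control in both treated groups, Lamb1 lies above and Lamb2 below control with bleomycin, and Lamc3 is lowest with bleomycin.

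Other genes of basement membrane assembly, adhesion and turnover were read from lists set beside the 38. Of 18 assembly genes and minor components 16 were tested, and 1 rose and 1 fell with bleomycin, against 4.74% and 3.69% of all genes. Fbln2, a fibulin that binds nidogen and laminin, rose from 35.3 ± 3.22 to 74.1 ± 2.99 FPKM and was at 40.1 ± 9.54 in nitrate (1.05 ± 0.17, adjusted p = 0.0116 against control). Sparc, which binds collagen IV, fell from 1322 ± 176 to 594 ± 87.8 FPKM and was at 586 ± 99.8 in nitrate (-1.15 ± 0.19, adjusted p = 0.0118). Against control 3 fell with nitrate and 0 rose, against 4.90% and 3.63% of all genes. Those that fell were Sparc, Tinagl1 (-1.05 ± 0.21, adjusted p = 0.0267) and the collagen IV crosslinking enzyme gene Loxl2 (-0.82 ± 0.19, adjusted p = 0.0383).

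Of 17 other adhesion receptors and adaptors 16 were tested, with 1 higher and 2 lower in bleomycin, against 4.74% and 3.69% of all genes. Sdc1, the epithelial syndecan, rose from 70.1 ± 18.7 to 156.9 ± 13.9 FPKM (1.18 ± 0.22, adjusted p = 0.0168) and was at 165.6 ± 32.2 in nitrate. Itga8, the nephronectin receptor chain, fell from 3.27 ± 0.207 to 1.46 ± 0.107 FPKM (-0.79 ± 0.12, adjusted p = 0.00886), and Fermt2, the kindlin of mesenchymal cells, fell from 29.4 ± 2.79 to 17.005 ± 3.35 (-0.77 ± 0.19, adjusted p = 0.0459). With nitrate against control Sdc1 was again higher, and Itga8, Fermt2 and Parva, which encodes an adaptor of integrin-linked kinase, were lower. Over all genes 3.63% were called higher and 4.90% lower there. With nitrate Fermt1 was thus higher and Fermt2 lower than in control, at 7.11 ± 1.46 and 13.4 ± 3.42 FPKM against 2.92 ± 0.748 and 29.4 ± 2.79.

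Of 12 proteases that cleave basement membrane 11 were tested, and 2 rose and 0 fell with bleomycin, against 4.74% and 3.69% of all genes, with a median fold change of 0.82 against 0.01. Plat, the tissue plasminogen activator, rose from 3.41 ± 0.193 to 7.37 ± 0.279 FPKM (0.92 ± 0.09, adjusted p = 0.00345) and was at 4.81 ± 0.176 in nitrate. Mmp13, a collagenase, rose from 1.19 ± 0.826 to 19.4 ± 15.4 FPKM (3.005 ± 0.71, adjusted p = 0.0375), with 36.6, 14.9 and 6.75 in bleomycin 1, 2 and 3. With nitrate against bleomycin all 11 estimates lay below 0 with a median of -0.73, and none was called by limma (8 at an unadjusted p under 0.05, all lower). Over all genes 50.4% of estimates lay below 0, and 10.4% were lower at that unadjusted p. The summed level of 8 macrophage and leukocyte genes was 273.9 to 409.3 FPKM in control, 745.8 to 1257 with bleomycin and 247.4 to 550.5 with nitrate. That of 10 immediate early genes, which also respond to sample handling, was 248.6 to 294.2, 389.8 to 1298 and 383.5 to 390.5. No gene of either list was at 0 in any library, and their part in the protease values was not tested. Against control Plat was higher with nitrate (0.40 ± 0.09, adjusted p = 0.0369) and the stromelysin gene Mmp3 was lower (-1.44 ± 0.21, adjusted p = 0.0139).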

How the data were processed

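Skin RNA of 9 libraries was grouped by sample title. Per the labels' protocols, total RNA was used with a SMARTer mRNA library kit. The build was mm10, per the submitters' processing notes. The sources used here name no aligner, counter or filter. The authors deposited 1 table of FPKM values. Whole reads could be recovered from it (within 0.01 for at least 99.9% of values above 0), 15804050 to 18352592 per library, and fewer reads mean less precise values.

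Tests used log2(FPKM + 1), a pseudocount of 1, in limma 3.58.1 (R 4.3.3). The 3 group means were fitted together with trended, robust eBayes, two-sided, and the script was tested on simulated data. The 38 genes and the other lists were chosen with earlier results of these data known. Called genes and the 6 with the smallest p per comparison are named with full values, other genes of the 38 by their levels, and up to 4 per comparison from each further list. Alternatives covered a pseudocount of 0.1, absent or stricter filters (mean FPKM of 5), other scalings, only the groups compared, a replicate block, array weights, voom on recovered reads, a hair follicle covariate, and omitted libraries. Voom with no filter (at least 10 reads) was added after the data were seen. Python 3.11.15 and matplotlib 3.10.9 made the figures.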

Additional observations from a re-analysis of the deposited data

How the results depend on the processing

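Counts of called genes were small and moved with the settings. The direction of all 18 fold changes followed for the named genes held under every alternative run (373 values, of which 58 lost and 16 gained a call). These genes were named by a call or a small p in the same data, so their directions could hardly reverse and lend no support. With bleomycin against control the count of called genes among the 38 went from 3 to 1 with no filter, 6 with only the groups compared, 9 with array weights, 6 with voom on recovered reads and no filter, and 0 without both control 1 and bleomycin 1. Leaving out 1 library gave 0 (control 1 or bleomycin 1) to 7 (nitrate 2). With nitrate against bleomycin it was 0 in every setting, and 0 to 0 on leaving out 1 library. With nitrate against control it went from 4 to 2 with no filter, 1 with only the groups compared, 7 with voom and no filter, 0 with the hair follicle covariate, and 0 without both control 1 and bleomycin 1. Leaving out 1 library gave 0 (control 1, control 2 or nitrate 3) to 7 (nitrate 2). With the replicate number as a block it was 7, all lower: Hspg2, Lama4, Lamb2 and Nid1 were added and Fermt1 was lost (adjusted p = 0.0518). Under the block bleomycin against control stayed at 3, with Col4a6 lost (adjusted p = 0.0592) and Col18a1 gained (adjusted p = 0.0425). Of all 14645 genes the block called 1067 with nitrate against control (496 higher and 571 lower). With bleomycin against control it called 1039 (597 higher and 442 lower). Same-numbered libraries correlated at -0.39 to 0.52 (median 0.20, against -0.04 for other pairs), and the same number was the best match in 9 of 18 cases. Not every pair was above 0.1, so the numbers were not read as pairs, and a partial pairing was not settled by these values. Over all genes, 1234 were called with bleomycin against control, 676 with no filter, 747 at a mean FPKM of at least 5, 1947 with array weights, 137 without both control 1 and bleomycin 1, and 334 to 1539 on leaving out 1 library. With nitrate against control 1249 were called, 294 with no filter, 306 with only the groups compared, 2085 with array weights, 5 with the covariate, 23 without both libraries, and 45 to 2882 on leaving out 1. With nitrate against bleomycin 0 were called, 10 with the block and up to 37 on leaving out 1. Omitting libraries leaves fewer samples and omitting the filter tests more genes; otherwise the cause was not tested. Low read numbers limit Col4a3 and Col4a4 in the treated groups and Lama1 in every group. The main filter left these genes out.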
